A study of Mus musculus with 10 samples.

Results

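The genes described here are 10 members of the mouse interleukin-1 (IL-1) family of cytokines and receptors, Il1a, Il1b, Il1rn, Il1r1, Il1r2, Il18, Il33, Il1rl1, Il1f6 and Il1f9, out of 19096 genes that could be named on the arrays. They were picked by name. Of the 16 probes carrying these names, the one with the strongest average across the 10 arrays stood for its gene. RNA was measured on 1-colour Agilent arrays of the mouse genome, 1 array per sample. The 5 wild-type (WT) samples were whole lungs of Lkb1f/f mice, which carry the floxed Lkb1 alleles but no Cre. The 5 squamous cell carcinoma (SCC) samples were whole lung tumors of CCSPiCreLkb1f/f mice, in which a Cre driven by the CCSP promoter deletes Lkb1 in airway epithelium, large airways and their basal cells included. All mice were labelled as strain B6.129, aged 13 months and untreated, so that the groups differed in Cre, in tissue (lung or tumor) and, as described below, largely in slide. Lkb1, whose official symbol is Stk11, encodes a kinase that activates AMPK, and its own level is not analysed here. Whole tissue holds many cell types, and in such samples fewer cells of a type and less RNA per cell cannot be told apart.

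IL-1 alpha and IL-1 beta are inflammatory cytokines that bind the same receptor, IL-1R1. IL-1 beta is made as a precursor and cut by caspase-1 in the inflammasome, whereas IL-1 alpha is active without that cut and is held in epithelial cells until they are damaged. The family carries its own brakes, since IL-1Ra, the product of Il1rn, occupies the receptor without signalling and IL-1R2 is a decoy that binds the cytokine and transmits nothing. The remaining cytokines use receptors of their own. IL-18 signals through IL-18R1 and is restrained by a binding protein, IL-33 is an alarmin of barrier tissues, the lung included, that signals through ST2 (Il1rl1), and the IL-36 cytokines (Il1f6 and Il1f9 encode IL-36 alpha and IL-36 gamma) are typical of squamous epithelia such as skin. Each signalling receptor recruits the adaptor MyD88 and leads to NF-kB and AP-1 activity.

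The RefSeq promoter table (GRCm38.p6) held windows for 9 of the 10 genes, 14 windows in all, and the 250 bases before each start were searched on both strands. Il1a, Il1b, Il1rn and Il1f9 had their windows on chromosome 2, Il1r1, Il1r2 and Il1rl1 on chromosome 1, Il18 on chromosome 9 and Il33 on chromosome 19. A window is printed for Il1a and Il1b, the agonists whose array values moved together, for Il1rn, their antagonist, and for Il33, the member with the least spread among tumors. Capitals mark a match to AP-1 (TGANTCA) or to the TATA box (TATAAA), which do not overlap in these windows. Il1a and Il1b lie on the minus strand, at chr2:129309973-129310222 and chr2:129371140-129371389, and Il1rn and Il33 on the plus strand, at chr2:24336610-24336859 (the first of its 3 windows) and chr19:29945540-29945789 (the second of its 2), each sequence being written 5′ to 3′ in the direction of the gene and ending at the base before the start.
Il1a: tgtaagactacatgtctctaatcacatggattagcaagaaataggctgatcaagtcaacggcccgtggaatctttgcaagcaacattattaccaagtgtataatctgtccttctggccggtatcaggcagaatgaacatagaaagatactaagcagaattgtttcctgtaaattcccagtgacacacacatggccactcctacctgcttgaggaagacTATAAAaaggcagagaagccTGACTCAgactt
Il1b: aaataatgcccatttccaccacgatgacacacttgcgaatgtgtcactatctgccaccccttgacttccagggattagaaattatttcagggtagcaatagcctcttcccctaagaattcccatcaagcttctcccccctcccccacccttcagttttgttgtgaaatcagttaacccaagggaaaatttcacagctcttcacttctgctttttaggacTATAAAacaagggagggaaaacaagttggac
Il1rn: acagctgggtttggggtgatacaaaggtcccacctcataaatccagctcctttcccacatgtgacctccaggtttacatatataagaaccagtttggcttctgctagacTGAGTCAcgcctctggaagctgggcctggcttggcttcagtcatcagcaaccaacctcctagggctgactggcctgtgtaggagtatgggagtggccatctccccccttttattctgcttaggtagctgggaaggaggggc
Il33: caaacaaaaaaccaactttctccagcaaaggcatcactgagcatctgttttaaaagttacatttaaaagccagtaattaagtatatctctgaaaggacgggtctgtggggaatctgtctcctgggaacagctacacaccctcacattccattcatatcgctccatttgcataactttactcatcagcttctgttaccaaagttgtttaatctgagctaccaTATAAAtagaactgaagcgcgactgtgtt

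The Il1a window held an AP-1 match that began 12 bases before the start and a TATA box that began 32 bases before it. Il1b had a TATA box 31 bases before the start and Il33 one 29 bases before it in the window shown, and neither had an AP-1 match. Il1rn showed the reverse, an AP-1 match 141 bases before the start and no TATA box. Of all 14 windows, 2 held the AP-1 letters (Il1a and Il1rn), 5 held the letters TATAAA and 1 (the second window of Il1r1) held the NF-kB consensus. The TATAAA match of Il18 was on the opposite strand, 175 bases before the start, and that of the first Il33 window lay 203 bases before it. Over the 32851 windows of the whole table these motifs were found in 6.75%, 12.4% and 7.25%. These are letter matches in a short window, and no binding was measured.

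Between 71.0% and 74.5% of probes were well above background on 9 of the arrays, and 90.2% on SCC replicate 5. Both SCC replicates 2 and 5 stood apart. SCC replicate 2 was the tumor closest to WT, its median correlation with WT arrays being 0.964 against 0.883 to 0.947 for the other 4, and SCC replicate 5 was the farthest from both groups, at 0.883 with WT and 0.931 with the other tumors, which had medians of 0.960 to 0.978. Of the squamous markers, 8 of 8 were called higher in SCC (9.92% of all probes were), but Krt6a, Dsg3, Sprr1b and Ivl were tested only because of their level in SCC. Krt5, a keratin of basal and squamous cells, lay between 5.29 and 6.63 on WT arrays and between 15.60 and 17.70 on SCC arrays. On SCC replicate 2 the mean log2 signal of that list was 9.04, compared with 12.01 to 12.39 on the other SCC arrays and 4.08 to 4.68 on WT arrays. Signals are given below on the log2 scale after quantile normalization, differences are SCC minus WT, and a call needed an adjusted p below 0.05 from limma over 30374 tested probes together with a difference of at least 2-fold.

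Of the 10 genes, 7 were called higher in SCC (Il1a, Il1b, Il1rn, Il1r2, Il33, Il1f6 and Il1f9) and 0 lower, whereas 9.92% of all tested probes were called higher and 13.0% lower. Il1f6 was tested only because of its level in SCC, and 6 of the 9 genes that were well above background on all 10 arrays were called. The median difference of the 10 genes was 2.51, and that of all tested probes -0.09. By adjusted p alone 8 members were higher, Il1r1 being the addition, and 49.0% of all probes passed in either direction. In 5 genes (Il1rn, Il1r2, Il33, Il1f6 and Il1f9) every tumor exceeded the WT range, where 37.3% of all probes had groups without overlap and 16.3% were higher without it. The count was 8 when SCC replicate 2 was left out, with Il1rl1 added, and 7 when SCC replicate 5 was left out. It was 4 with the slide as a fixed block, where Il1a, Il1b and Il1r2 were no longer called.

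**Figure D1:**
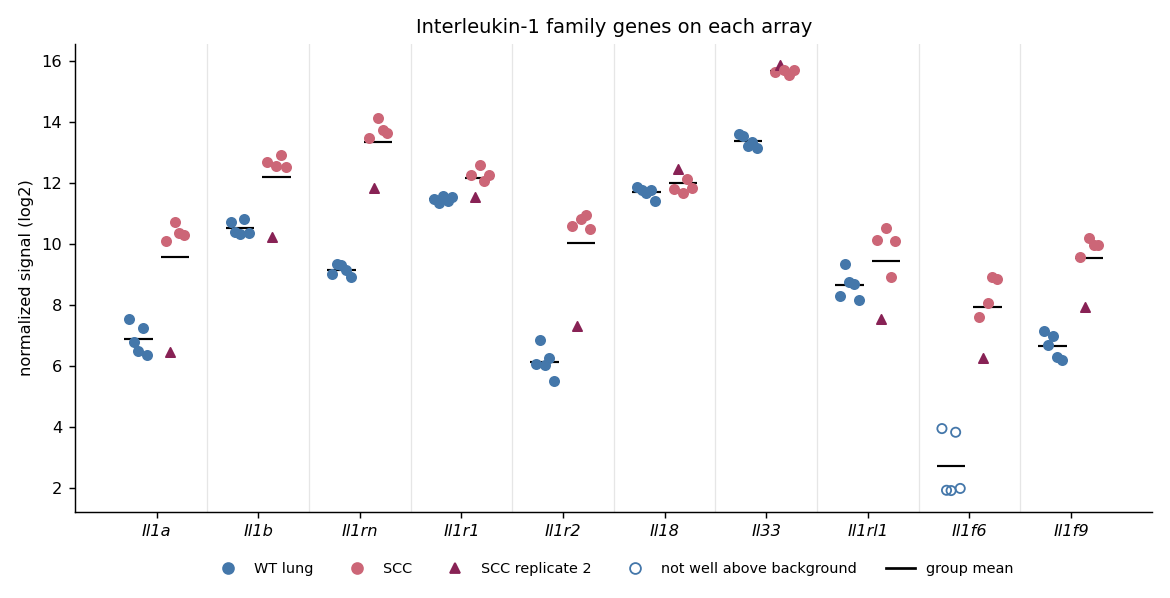
Normalized log2 signal of the 10 genes on each array, with WT lungs in blue, SCC in rose, SCC replicate 2 as a triangle and the group mean as a bar. Open symbols were not well above background, and signals of different probes are not comparable with each other. Il33 separates the groups with all 5 tumors between 15.52 and 15.85, whereas the triangle lies among or below the WT points for Il1a, Il1b, Il1r1 and Il1rl1.

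Both agonists of IL-1R1 were higher in SCC, and in both the same tumor stayed at the WT level. Il1a measured 7.55, 6.79, 6.48, 7.23 and 6.36 on WT replicates 1 to 5, and 10.08, 6.47, 10.72, 10.36 and 10.29 on SCC replicates 1 to 5. The other 4 tumors were above every WT lung and SCC replicate 2 was inside the WT range. The difference was 2.70 ± 0.74 (SE, n = 5 and 5), or 6.52-fold, with an adjusted p of 0.0132 from limma and an exact permutation p of 0.0397 (two-sided). A second Il1a probe gave 2.88 (limma adjusted p = 0.0138). Il1b measured 10.73, 10.40, 10.32, 10.82 and 10.35 in WT and 12.69, 10.22, 12.55, 12.90 and 12.52 in SCC. The 4 high tumors lay close together, and SCC replicate 2 was below the lowest WT lung. The Il1b difference was 1.65 ± 0.46 (SE), or 3.14-fold, with a limma adjusted p of 0.0142 and an exact permutation p of 0.0476. Leaving out SCC replicate 2 gave 3.48 for Il1a and 2.14 for Il1b, with limma adjusted p-values of 6.02e-06 and 2.66e-06. With the slide as a fixed block neither gene was called, at limma adjusted p-values of 0.227 and 0.282.

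The antagonist and the decoy receptor were higher in every tumor. Il1rn measured 9.02, 9.33, 9.32, 9.14 and 8.91 in WT and 13.46, 11.83, 14.11, 13.72 and 13.64 in SCC. No tumor came near the WT range, and SCC replicate 2 was the lowest of the 5. With a difference of 4.21 ± 0.37 (SE), or 18.5-fold, and a limma adjusted p of 2.38e-05, Il1rn had the largest difference among the members that were measurable in both groups, by the probes chosen to stand for them. Its second probe, well above background on 1 WT array, gave 3.64. Il1r2 measured 6.07, 6.86, 6.02, 6.26 and 5.51 in WT and 10.57, 7.30, 10.81, 10.93 and 10.50 in SCC. SCC replicate 2 was just above the highest WT lung, and the other 4 tumors were well above it. The Il1r2 difference was 3.88 ± 0.65 (SE), or 14.7-fold (limma adjusted p = 0.000973), and without SCC replicate 2 it was 4.56. Normexp background correction gave smaller differences for Il1r2 (2.73), Il1a (1.98) and Il1f9 (1.98), all still called. With the slide as a fixed block the gene was not called (4.05, limma adjusted p = 0.0636). A second probe, also well above background on 1 WT array, gave 4.24. For both genes the exact permutation p was 0.00794, the smallest that 5 against 5 arrays allow.

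The signalling receptor Il1r1 was higher in SCC by less than 2-fold. It measured 11.48, 11.35, 11.58, 11.41 and 11.52 in WT and 12.25, 11.55, 12.57, 12.07 and 12.27 in SCC, with SCC replicate 2 inside the WT range. Its difference of 0.68 ± 0.17 (SE), or 1.60-fold, passed the test (limma adjusted p = 0.00857, exact permutation p = 0.0159) but stayed under 2-fold, so it was not called.

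Because 2 probes cannot be ranked by brightness, pairs of genes were compared by how the gap between their log2 signals changed from WT to SCC on the same arrays. Of 6 pairs, 1 is not given because both genes were below background in every WT lung. The permutation tests took no account of slide, and no pair was fitted with the slide as a block. Il1rn minus Il1b ran from -1.71 to -1.0 in WT and from 0.77 to 1.61 in SCC, so that Il1rn rose by 2.56 more than Il1b (exact permutation p = 0.00794, 0.0159 adjusted over the 6 pairs). The gap to Il1a ran from 1.47 to 2.84 in WT and from 3.35 to 5.36 in SCC, a change of 1.50 with the same p-values. In 4 tumors that gap lay between 3.35 and 3.39, and in SCC replicate 2, where Il1rn was up and Il1a was not, it was 5.36. The decoy rose by 3.20 more than the signalling receptor (exact permutation p = 0.00794, adjusted 0.0159), the gap running from -6.01 to -4.49 in WT and from -4.26 to -1.14 in SCC.

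**Figure D2:**
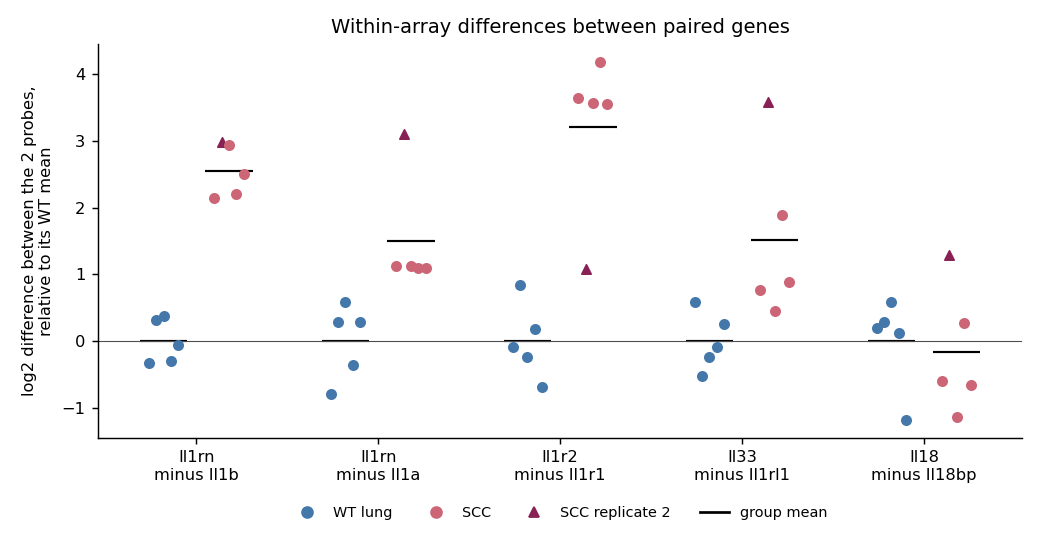
Gap between the log2 signals of 2 genes on each array, relative to the mean gap in WT, for 5 pairs, with SCC replicate 2 as a triangle and the group mean as a bar. Il1rn gained on Il1b by 2.56 and on Il1a by 1.50, and Il1r2 gained on Il1r1 by 3.20, with no overlap between the groups, whereas the gap between Il18 and Il18bp changed by -0.17.

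Il33 rose to nearly the same level in each tumor. The WT lungs measured 13.59, 13.54, 13.22, 13.32 and 13.13, and the tumors 15.62, 15.85, 15.68, 15.52 and 15.69. The SD was 0.20 among WT lungs and 0.12 among tumors, and SCC replicate 2, the WT-like array for Il1a and Il1b, was the highest of all. The difference was 2.31 ± 0.11 (SE), or 4.96-fold, with a limma adjusted p of 1.23e-06, the lowest of the family, and an exact permutation p of 0.00794. Cell type marker lists were read beside Il33, where 9.92% of all probes were called higher and 13.0% lower. Of 6 endothelial markers 6 were called lower. Of 8 squamous markers 8 were called higher, Krt6a, Dsg3, Sprr1b and Ivl being tested only because of their level in SCC. Of 6 alveolar type 2 markers 0 were called, Sftpc sitting at the top of the scale (18.80) on 7 arrays. The mean log2 signal of the alveolar type 2 list was nevertheless lower in every tumor, at 15.30 to 15.40 in WT and 14.56 to 15.24 in SCC, and Sftpa1, Lamp3, Sftpb and Slc34a2 passed the adjusted p with differences of -0.74, -0.81, -0.86 and -0.51, under 2-fold. That of the endothelial list was 13.49 to 13.69 in WT and 10.92 to 12.12 in SCC. The part of these cell types in the Il33 difference was not tested.

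Il1rl1, the receptor of IL-33, was not called. It measured 8.29, 9.35, 8.75, 8.69 and 8.16 in WT and 10.14, 7.55, 10.52, 8.92 and 10.10 in SCC. SCC replicates 1, 3 and 5 were above all WT lungs, SCC replicate 4 was within their range and SCC replicate 2 below it. The difference of 0.80 had a 95% interval from -0.39 to 1.99 (limma adjusted p = 0.235), and without SCC replicate 2 it was 1.27 (limma adjusted p = 0.0125). A probe for another RefSeq transcript of the gene, well above background on 1 WT array and on all SCC arrays, differed by 1.25 (limma adjusted p = 0.0851). Il33 rose by 1.51 more than Il1rl1 (exact permutation p = 0.0159, adjusted 0.0239 over the 6 pairs), a change that was 0.99 without SCC replicate 2.

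Il18 was not called either. It measured 11.87, 11.77, 11.66, 11.76 and 11.39 in WT and 11.81, 12.46, 11.66, 12.14 and 11.84 in SCC. Here SCC replicate 2 was the highest array, and the groups overlapped. The difference was 0.29, with a 95% interval from -0.07 to 0.65 (limma adjusted p = 0.164). With the slide as a fixed block it was 0.58 ± 0.30 (SE), also not called. Il18bp, its secreted inhibitor, differed by 0.46 (limma adjusted p = 0.292), and the gap between Il18 and Il18bp changed by -0.17 (exact permutation p = 0.738).

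Both IL-36 agonists with a probe were higher in every tumor. Il1f6 was not well above background in any WT lung, where it read 3.95, 1.93, 1.92, 3.83 and 1.99, and it was well above background in all tumors, at 7.60, 6.27, 8.07, 8.92 and 8.85. It was therefore at least 14.7-fold higher in SCC (limma adjusted p = 0.000121), a bound set against the lowest signal that was well above background on each WT array or the probe's own where that was higher. With normexp background correction, which adds an offset of 50 before the log is taken, its log2 difference was 1.84 in place of 5.22. Il1f9 was measurable in both groups, at 7.14, 6.68, 6.99, 6.29 and 6.19 in WT and 9.58, 7.92, 10.19, 9.97 and 9.96 in SCC. The ranges did not meet, although SCC replicate 2 was again the lowest tumor. The Il1f9 difference was 2.86 ± 0.42 (SE), or 7.28-fold, with a limma adjusted p of 0.000402, and a second probe gave 3.41.

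Of 9 further family genes, 7 could be tested and 2 were called higher, with 0 lower, beside 9.92% and 13.0% of all probes. Il1f5, which encodes the IL-36 receptor antagonist, was not well above background in any WT lung and was so in 4 tumors, at least 2.77-fold higher (limma adjusted p = 0.00128). Il1rl2, the IL-36 receptor, was likewise below background in WT and above it in all 5 tumors, at least 3.73-fold higher (limma adjusted p = 0.00515). Both were tested only because of their level in SCC, as was Il1f6, and with the slide as a fixed block neither was called (limma adjusted p = 0.104 and 0.222). None of the further family genes that were measurable in WT was called. The shared co-receptor Il1rap differed by 0.59 (limma adjusted p = 0.0136, under 2-fold). The IL-18 receptor chains Il18r1 and Il18rap differed by -0.60 and -0.09, and Sigirr, an inhibitory receptor, by -0.40, with limma adjusted p-values of 0.0645, 0.862 and 0.0828. The sign for Il18rap rested on SCC replicate 5, the difference being 0.30 without it, 0.37 with scaling to the 75th percentile and 0.30 within slide 2. Il1f10 was well above background on 1 array, SCC replicate 5, where it read 6.42, the other tumors reading 1.62 to 2.63, and Il1f8 is not analysed here.

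**Figure D3:**
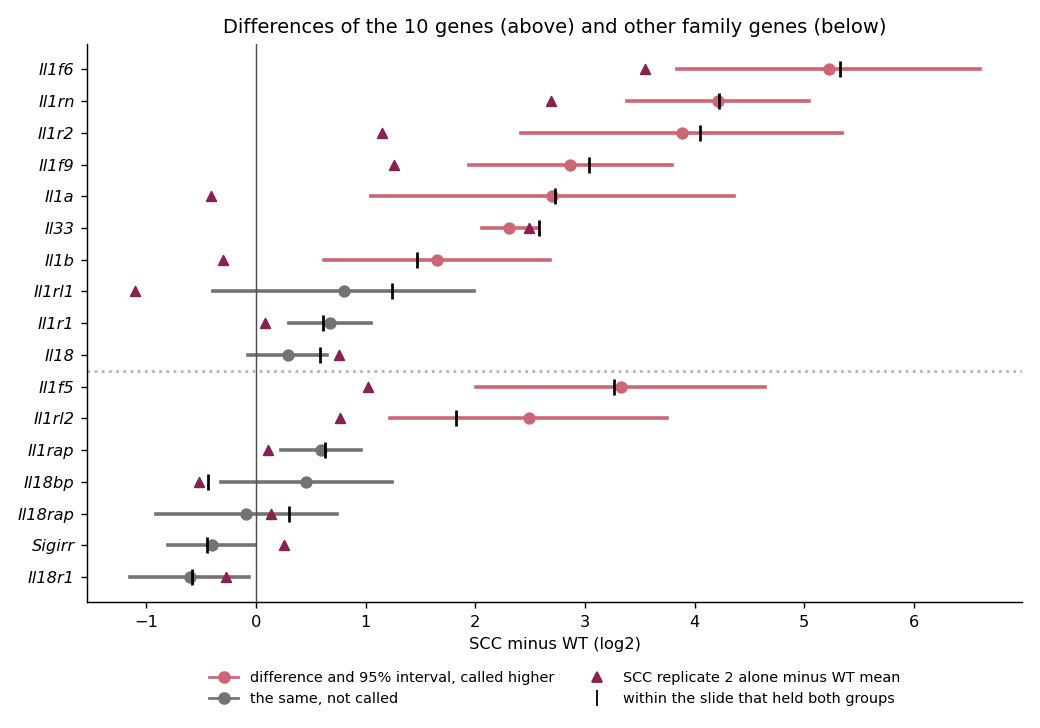
Difference between SCC and WT on the log2 scale with its 95% interval for the 10 genes (above the dotted line) and 7 other family genes (below it), called genes in rose. Triangles give SCC replicate 2 alone minus the WT mean and black ticks the difference within the slide that held both groups. Il1f6, Il1f5 and Il1rl2 were not well above background in any WT lung, so their points give no size. Among the rest Il1rn and Il1r2 lie farthest right, and the ticks of the 6 called members measured in both groups lie between 1.47 and 4.22.

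The members differed in how far SCC replicate 2 took part. Relative to the mean difference of the other 4 tumors, this array showed 110% of the difference for Il33, 58.5% for Il1rn, 38.6% for Il1f9 and 25.2% for Il1r2. Il1f6, below background in WT, gives no such share. For Il1b and Il1a it showed -14.1% and -11.8%, that is, a value slightly below the WT mean. Over all probes called higher the median was 51.4%, with quartiles of 22.7% and 85.5%, and 20.1% of those probes were at or below the highest WT lung on this array. SCC replicate 2 stood apart in most cell type lists, not only in those of leukocytes. The squamous list averaged 9.04 there, against 12.01 to 12.39 in the other tumors. For the endothelial list it was 12.12 against 10.92 to 11.20. The alveolar type 2 list averaged 15.24 against 14.56 to 14.77, and the club cell list 17.72 against 15.54 to 17.04. The neutrophil list averaged 9.48 to 10.48 in WT, 11.70 to 11.85 in the other 4 tumors and 9.49 in SCC replicate 2, with 4 of 8 markers called higher (S100a8, Cxcr2, Csf3r and Mmp8), none called lower and none at background. The share called higher over all probes was 9.92%, also for the counts that follow. The macrophage list averaged 12.03 to 12.45, 12.95 to 13.10 and 11.76, with 2 of 8 called higher (Cd68 and Itgax) and none lower. Its members did not move one way, since Csf1r differed by -0.50 (limma adjusted p = 0.00517), Marco by -0.75 (limma adjusted p = 0.0199) and Mertk by -0.34 (limma adjusted p = 0.0631). The squamous list averaged higher in every tumor than in any WT lung, 3 of its 8 markers being at background in WT. On single arrays Sprr1b read 1.86 in SCC replicate 2 and Krt1 read 5.23 in SCC replicate 5, each within its WT range. Whether these cell types account for the levels of Il1a, Il1b, Il1r2 or Il1rl1 was not tested.

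**Figure D4:**
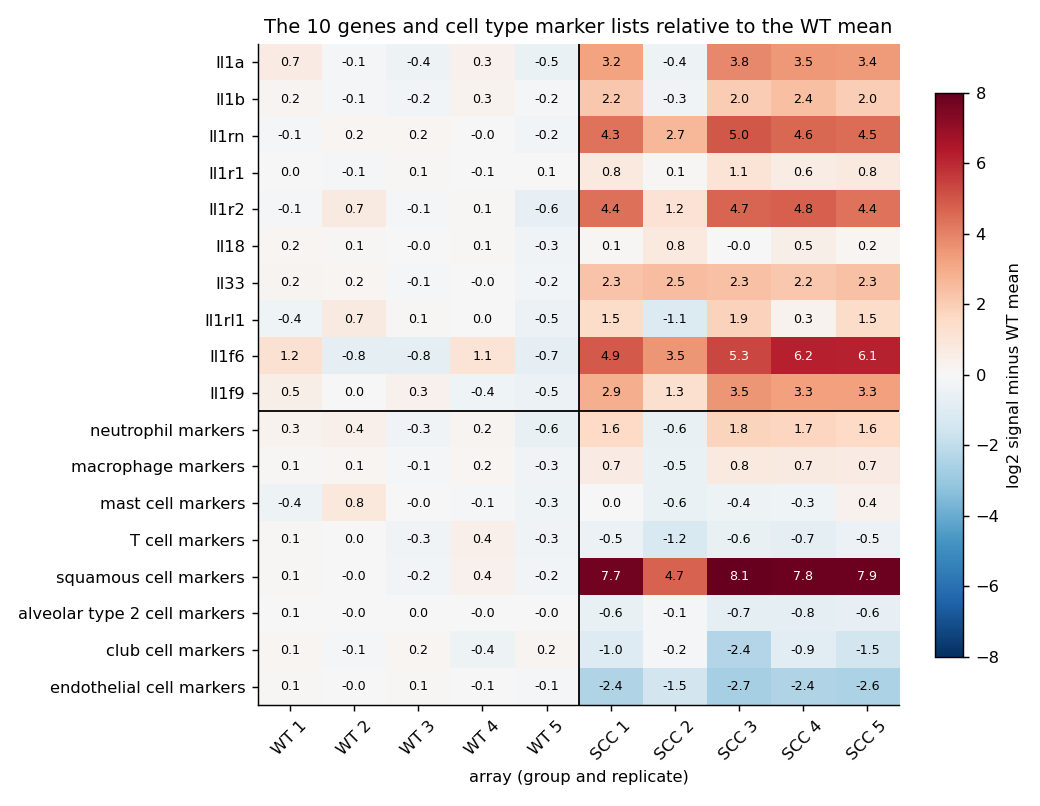
Log2 signal of the 10 genes (rows above the line) and mean log2 signal of 8 cell type marker lists (rows below) on each array, minus the WT mean, with red for higher and blue for lower. In the column of SCC replicate 2, Il1a, Il1b, Il1rl1 and every marker list except the squamous one are below the WT mean, whereas Il33 is at the level of the other tumors.

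The genes whose profile over the 10 arrays was closest to each member, by the root mean square difference of mean-centred log2 signals among 15512 genes, differed from one member to the next. For Il1b these were Stfa2l1 (0.14), Dennd6b (0.20) and Itgax (0.20), for Il1a Ccl9 (0.30), Mxd1 (0.33) and Klk8 (0.38), and for Il1r2 Trim29 (0.24), Msr1 (0.29) and Tmem40 (0.33). Il1rn lay closest to Perp (0.25), Tns4 (0.27) and Lhfpl1 (0.30), and Il33 to Frk (0.14), Mlph (0.17) and Plpp2 (0.22). Perp is a desmosomal protein of stratified epithelia and Itgax an integrin of dendritic cells and lung macrophages. The nearest genes of Il1f9 were Sgo1 (0.23), Cenpe (0.24) and Ticrr (0.25), and those of Il1f6 were more distant, at 0.61 for Fam25c, 0.70 for Dapl1 and 0.73 for Hebp2. For the members that were not called, the closest genes were Tubgcp2 (0.091) for Il1r1, Sh2d4a (0.11) for Il18 and Cyp4f18 (0.30) for Il1rl1. All profiles share the same 10 arrays, 2 group means and SCC replicate 2, so likeness is a description of these arrays.

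Pathway genes outside the 10 were read in 4 lists, the further family genes above being the first. Over these lists 14 of 46 tested were called, 12 higher and 2 lower, and 22.9% of all probes were called in either direction. Of the 46, 7 were tested only because of their level in SCC, and among the other 39 the calls were 9 (23.1%), near the 21.6% of all probes with that filter on WT arrays. Of 9 genes that process the cytokines, 2 were called higher and 0 lower, beside 9.92% and 13.0% of all probes. Pycard (ASC), the adaptor that assembles inflammasomes, differed by 2.36 (limma adjusted p = 4.36e-05) and Casp1, the enzyme that matures IL-1 beta and IL-18, by 1.02 (limma adjusted p = 2.42e-05). Both were above the WT range in all 5 tumors. Casp1 fell just under 2-fold, at 0.99, without SCC replicate 5. The 4 inflammasome sensors of the list were not called, and they were named after their values were seen. Nlrp3, Nlrc4, Aim2 and Mefv differed by -0.28, 0.56, 0.83 and 1.35, with limma adjusted p-values of 0.147, 0.389, 0.0476 and 0.0712. The Nlrc4 difference came from SCC replicate 2 (10.51, the other tumors reading 7.58 to 8.07) and was 0.01 without it. Aim2, well above background on 1 WT array, was tested only because of its level in SCC. It was called when arrays were scaled to the 75th percentile (1.30), and Mefv without SCC replicate 2 (1.96).

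Of 19 signalling genes tested, 0 were called higher and 1 lower, beside 9.92% and 13.0% of all probes, with a median difference of -0.03. By adjusted p alone 4 were higher and 3 lower, where 49.0% of all probes passed in either direction. The called gene, Nfkbia, encodes the NF-kB inhibitor I-kappa-B alpha and differed by -1.09 (limma adjusted p = 0.000215), and it fell just under 2-fold without SCC replicate 2 (-0.98) and with scaling to the 75th percentile (-0.94). Myd88, the shared adaptor, differed by 0.78 (limma adjusted p = 0.000128) and Peli1, a ubiquitin ligase of the receptor complex, by -0.82 (limma adjusted p = 0.000114). Ikbkg differed by -0.90 and was called lower without SCC replicate 2 (-1.07, limma adjusted p = 0.000437). Myd88, Peli1 and Ikbkg were chosen after their values were seen. Peli1 was called lower with the slide as a fixed block (-1.03, limma adjusted p = 0.0121).

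Among 12 genes known to be induced by IL-1, a response that was not measured here, 11 were tested. Of these, 8 were called higher and 1 lower, beside 9.92% and 13.0% of all probes. The median difference was 2.11, or 2.03 with Csf3, below background in WT, at its bound. Of the 11, 4 were tested only because of their level in SCC (Cxcl5, Ccl20, Il6 and Csf3), and all of them but Ccl20 were called higher. Of the other genes, Cxcl1, Cxcl2, Lcn2, Saa3 and Nfkbiz were called higher, Csf2 lower and Ptgs2 not. Cxcl5, a neutrophil chemokine, read at most 5.11 in WT, where 3 of 5 arrays were not well above background, and at least 10.32 in SCC (limma adjusted p = 8.21e-06). The acute phase gene Saa3 differed by 4.85 (limma adjusted p = 0.000671) and Cxcl2, another neutrophil chemokine, by 3.81 (limma adjusted p = 0.00564). Il6, Csf3, Nfkbiz, Lcn2 and Cxcl1 were the others called higher. Csf2, which encodes GM-CSF, fell by 1.45 (limma adjusted p = 0.000221), and Ptgs2 and Ccl20 differed by -0.29 and 1.70 without passing the test. On SCC replicate 2, Saa3 and Cxcl2 read 9.34 and 5.49, below the other tumors at 12.85 to 13.38 and 8.87 to 9.94, and Cxcl5 read 10.32 against 13.15 to 13.74. Other genes of the list were highest on that array, Lcn2 at 14.98 against 13.21 to 13.47, Nfkbiz at 12.78 against 11.39 to 12.11 and Ccl20 at 9.12 against 4.46 to 6.07.

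**Figure D5:**
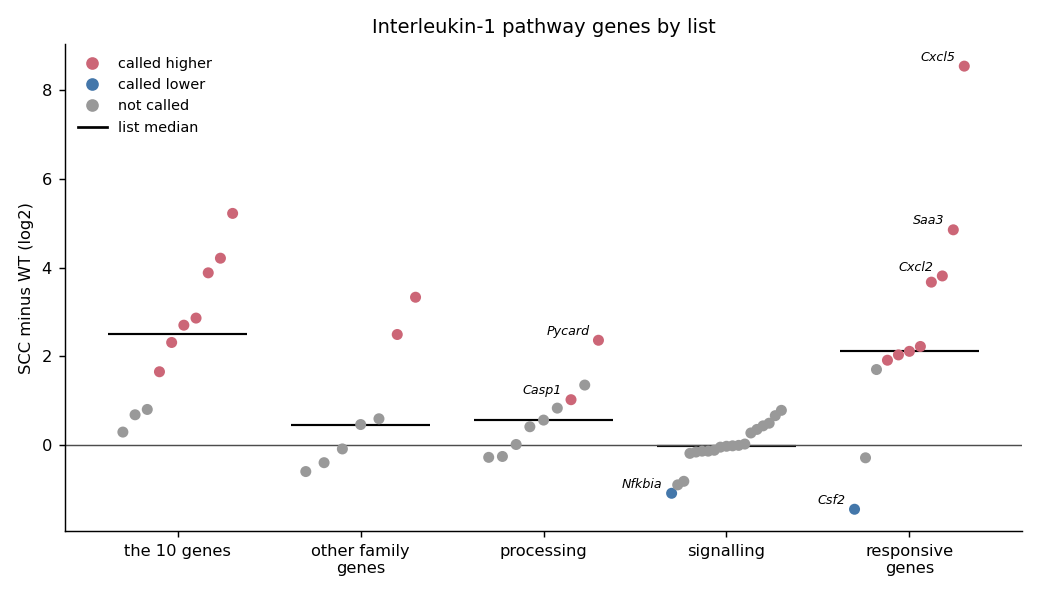
Difference between SCC and WT on the log2 scale for each tested gene of the 10 described genes and 4 pathway lists, coloured by call, with a bar at each list's median. The signalling genes lie around a median of -0.03. In the list of IL-1 responsive genes, whose median is 2.11, or 2.03 with Csf3 at its bound, 4 of 11 were tested only because of their level in SCC, as was 1 of the 10 genes, whose median is 2.51.

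The groups were split unevenly over 3 slides, slide 1 holding WT replicates 1 to 4, slide 2 WT replicate 5 with SCC replicates 1 to 3, and slide 3 the remaining tumors. Within slide 2 the differences were 2.73 for Il1a, 1.47 for Il1b, 4.22 for Il1rn, 4.05 for Il1r2, 2.58 for Il33 and 3.04 for Il1f9, each in the direction of the full comparison but resting on 1 WT lung. Because only slide 2 held both groups, the fit with the slide as a fixed block gives these same differences and rests on the same WT lung. With the slide as a fixed block 4 members remained called (Il1rn, Il33, Il1f6 and Il1f9), with limma adjusted p-values of 0.012, 0.00107, 0.0163 and 0.0377. Under that block Il1r1 differed by 0.61, against 0.68 in the full comparison, and no longer passed the test (limma adjusted p = 0.278). Of the other genes named above, Il1f5, Il1rl2, Cxcl2, Saa3, Cxcl1, Csf3 and Csf2 lost their calls, the differences of Cxcl2, Saa3, Cxcl1 and Csf2 being 4.95, 4.25, 2.56 and -0.98, and Pycard, Casp1, Nfkbia, Cxcl5, Il6, Lcn2 and Nfkbiz kept theirs. When the slide was a random block instead, the within-slide correlation was -0.017, so that this fit was nearly the fit without slides. It called 7 members and 14 pathway genes, as that fit did, and is not a separate check. Il18bp differed by -0.44 within slide 2, against 0.46 in the full comparison. Nothing in the labels says that the 5 samples of a group came from different mice or tumors, so p-values measure the spread between these samples.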

How the data were processed

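Total RNA was labelled with Cy3 and hybridised to single-colour Agilent arrays, 5 WT and 5 SCC, with the group and number of each sample as its title gives them. The authors read the arrays with Agilent Feature Extraction 12, per the labels. The deposited scanner files give per spot a background-subtracted intensity on a linear scale, median raw intensities, and flags (outlier, saturation, signal well above background). Log2 values were deposited by the authors too. They matched log2 of the quantile-normalized intensity (r of at least 0.9999 on every array) and served as an alternative.

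Control and outlier spots were left out, spots of a probe were averaged, and 41174 probes were quantile-normalized, as the study's methods state. Of these, 28223 (68.5%) received a symbol through RefSeq genes (GRCm38.p6). A probe was tested if at least 0.5 of its spots were well above background on at least 4 of the 5 arrays of a group. The fit used limma 3.58.1 under R 4.3.3 (all 10 arrays, no covariates, Benjamini-Hochberg adjustment over 30374 probes), in place of the analysis of variance that the methods name, whose form for 2 groups, a t-test, was an alternative. Exact two-sided permutation tests used all 252 splits of the arrays. On simulated data with 200 probes changed by 2 log2 units, the fit recovered 83% with 8 false calls. The number of arrays limits the precision.

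The members, the pathway and marker lists and the tests were chosen with earlier results of these data known. Named genes were all members, the family genes with a probe, and in each other list the 3 called genes with the largest difference in each direction, with exceptions stated. Other settings covered normalization, background correction (normexp, offset 50, on median raw intensities, since mean intensities were not used here), filters, slide and replicate blocks, array weights and leaving out arrays. Il1f8, Nfkb1, Ly6g and Kit, with which no probe was paired, are not analysed here.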

Additional observations from a re-analysis of the deposited data

Results flagged for a closer look

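In 18 of 62 groups of 5 arrays examined, 1 array lay far from the other 4, its gap to the nearest array being a share of the group's range above Dixon's critical value of 0.71. Chance flags about 1 in 20 groups. Of the 18, 12 concerned SCC replicate 2, 3 SCC replicate 5 and 3 a WT array. All groups come from the same 10 arrays.

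SCC replicate 2 was the lowest tumor for Il1a (gap 0.85 of the range), Il1b (0.857), Il1rn (0.716), Il1r2 (0.882) and Il1f9 (0.733). It was also the lowest for Il1f5 (0.751), Pycard (0.838), Cxcl5 (0.827), Saa3 (0.868) and Cxcl2 (0.759). Of the gaps between genes, Il1rn minus Il1a was highest there (0.981) and Il1r2 minus Il1r1 lowest (0.799).

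SCC replicate 5, the array with the most probes above background, was highest for Il1f10 (0.79) and lowest for Il18rap (0.86) and Csf2 (0.805). WT replicate 1 was highest for Il1f5 (0.898), where no WT array was above background, and for Il1rap (0.841), where the WT lungs spanned only 9.05 to 9.27. WT replicate 5 was lowest for the gap between Il18 and Il18bp (0.736).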

How the results depend on the processing

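Over all alternatives run, no member changed direction. Il1rn, Il33, Il1f6 and Il1f9 kept their calls in each, apart from Il1f6 not being tested when a probe had to be well above background on all 10 arrays. Counts moved by over 1.5 times in few settings. With the slide as a fixed block 2989 probes were called in place of 6954, 2640 of them shared, 4 members in place of 7 and 8 pathway genes in place of 14. Normexp called 3969 probes, and dropping the fold requirement called 14878 probes and 23 pathway genes. The filter on all 10 arrays left 8 pathway genes of 38, and 5316 probes of 26657. Il1a, Il1b and Il1r2 lost their calls with the slide as a fixed block, with differences of 2.73, 1.47 and 4.05. Il1rl1 passed with array quality weights (1.06, limma adjusted p = 0.0221) and without SCC replicates 2 and 5 (1.21, limma adjusted p = 0.0227). Scaling to the 75th percentile moved the median of all probes by 0.12 and the share of calls that were higher from 43.3% to 53.2%. The gap between Il18 and Il18bp changed by -0.54 to 0.07 over the left-out arrays, the last without SCC replicate 3. Leaving out 1 array at a time, the counts ran from 6385 to 8135 probes, from 7 to 8 members and from 13 to 15 pathway genes, the highest of each without SCC replicate 2. Replicate numbers did not pair the samples, the correlation of same-numbered WT and SCC arrays lying between -0.10 and 0.01, and with the replicate block 6571 probes, 7 members and 14 pathway genes were called.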

Other observations

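Lists of mast cells and T cells, which can respond to IL-33, and of club cells were also read, beside 9.92% of all probes called higher and 13.0% lower. Of 7 mast cell markers 6 had a probe and 4 were tested, of which 1 was called higher and 2 lower, and the list averaged 5.58 to 6.80 in WT and 5.41 to 6.34 in SCC. Of 6 T cell markers 5 were tested, 0 were called higher and 3 lower, with an average of 7.29 to 7.99 in WT and 6.32 to 7.10 in SCC. Of 3 club cell markers 2 were called lower, the list averaging 17.50 to 18.10 in WT and 15.54 to 17.72 in SCC.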
